A study of Mus musculus with 4 samples.

Results

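Germline genes are the genes that germ cells use for meiosis, for the piRNA defence against transposons and for their own identity, and that most somatic cells keep silent. The 40 germline genes listed here were chosen by name as a panel of such genes. A gene was kept when at least 1 unique molecular identifier (UMI, a counted molecule) was found in any section, which left 38 of the 40, out of 20388 genes with a UMI in all. Sycp2, a lateral element of the synaptonemal complex, and Rpl10l, a testis copy of a ribosomal protein gene, had 0 UMIs in every section. Spo11, the enzyme that makes meiotic DNA breaks, had 1 UMI in all, which left 37 genes that could be tested between the genotypes. Whether the probe set covers Sycp2, Rpl10l and Spo11 is not given in the sources used here. Their counts therefore do not show that they were silent.

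The sections were cut from formalin-fixed, paraffin-embedded pancreas of C57Bl/6 mice with caerulein-induced acute pancreatitis, and RNA was read in spots on Visium slides with probes transferred by the CytAssist instrument. Each mouse was fasted for 12 h, received 8 hourly injections of caerulein at 50 μg/kg, and was euthanized 18 h after the first dose. The Ehmt2 +/+ sections (labelled PDX1-Cre, named WT1 and WT2 here) and the Ehmt2 fl/fl sections (labelled EHMT2 knockout with PDX-Cre, named KO1 and KO2 here) all carry the Cre transgene. The Pdx1 promoter drives this Cre in the pancreatic epithelium, so that stromal and immune cells keep Ehmt2, and a spot can hold cells of several types. The study states that 4-week-old mice of both sexes were used, and the labels give no sex for a section. Each section is 1 replicate, with 2 a genotype, and nothing in the labels says more of the animals they came from. In a spot, fewer cells of a type and less RNA per cell cannot be told apart.

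EHMT2, also called G9a, is a histone methyltransferase that works with its partner EHMT1 to place the repressive dimethyl mark on histone H3. In embryonic stem cells its loss is known to release a set of germline genes, several of which are also held down by promoter DNA methylation and by a variant Polycomb complex that contains E2F6, MGA and MAX. Genes named Olfr, which code for odorant receptors and are used in the olfactory epithelium, were taken as the background that a silent gene gives in this assay. The question was whether any germline gene stood above that background in the Ehmt2 fl/fl sections.

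The promoters below are shown because they belong to the germline genes above the Olfr background in both Ehmt2 fl/fl sections (Asz1, Syce2 and Nanos3) and to classical germline genes that stayed near the background (Mael, Tdrd1 and Dazl). Each line gives the 250 bases before 1 start site of the gene, the first listed in the RefSeq annotation of GRCm38.p6. The bases are read 5′ to 3′ on the gene's own strand. For Tdrd1 the annotated gene begins at chr19:56826171, so that the last bases shown, with the marked CACGTG, lie inside it. Capitals mark CACGTG, the E-box bound by MGA and MAX, and TCCCGC, the core letters bound by E2F6, where they were found on either strand. The windows lie at chr6:18109062-18109311 on the minus strand for Asz1, chr8:84871861-84872110 on the plus strand for Syce2, chr8:84176553-84176802 on the minus strand for Nanos3, chr1:166238745-166238994 on the minus strand for Mael, chr19:56825959-56826208 on the plus strand for Tdrd1 and chr17:50293621-50293870 on the minus strand for Dazl.
Asz1: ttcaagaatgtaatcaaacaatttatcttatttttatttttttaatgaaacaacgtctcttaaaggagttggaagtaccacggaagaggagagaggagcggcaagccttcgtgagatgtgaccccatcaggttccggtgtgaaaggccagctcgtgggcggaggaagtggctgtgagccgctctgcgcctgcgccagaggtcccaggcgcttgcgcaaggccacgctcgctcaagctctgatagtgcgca
Syce2: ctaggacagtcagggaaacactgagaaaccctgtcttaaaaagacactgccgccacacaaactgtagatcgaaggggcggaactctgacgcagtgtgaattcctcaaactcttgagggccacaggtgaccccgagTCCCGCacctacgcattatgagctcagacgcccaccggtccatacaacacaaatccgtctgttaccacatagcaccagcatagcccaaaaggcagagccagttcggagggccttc
Nanos3: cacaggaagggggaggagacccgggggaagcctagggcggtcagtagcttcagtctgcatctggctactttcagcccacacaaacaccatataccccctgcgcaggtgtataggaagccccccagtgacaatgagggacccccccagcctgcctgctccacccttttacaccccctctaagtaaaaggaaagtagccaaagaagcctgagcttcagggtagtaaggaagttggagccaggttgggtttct
Mael: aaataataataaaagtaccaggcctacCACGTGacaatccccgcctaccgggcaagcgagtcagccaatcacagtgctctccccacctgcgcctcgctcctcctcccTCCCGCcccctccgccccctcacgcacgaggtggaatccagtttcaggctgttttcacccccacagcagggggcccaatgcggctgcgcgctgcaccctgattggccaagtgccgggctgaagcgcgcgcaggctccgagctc
Tdrd1: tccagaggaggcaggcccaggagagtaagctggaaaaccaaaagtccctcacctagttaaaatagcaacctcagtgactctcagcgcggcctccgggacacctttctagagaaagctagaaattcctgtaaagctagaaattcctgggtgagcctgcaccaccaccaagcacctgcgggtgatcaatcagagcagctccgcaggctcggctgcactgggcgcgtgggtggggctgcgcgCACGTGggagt
Dazl: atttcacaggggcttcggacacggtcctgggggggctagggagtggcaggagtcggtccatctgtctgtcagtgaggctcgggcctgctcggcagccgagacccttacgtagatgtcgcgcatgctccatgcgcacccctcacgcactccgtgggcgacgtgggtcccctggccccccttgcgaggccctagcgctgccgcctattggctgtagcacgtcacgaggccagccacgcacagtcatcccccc

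In windows of 300 bases that also take in the first 50 after the start site, 35 of the 40 germline genes were matched to the RefSeq table. Dppa3, Tdrd6, Tex15, Piwil2 and Spo11 were not matched. CACGTG stood in 42.9% of the 35 windows, against 7.24% of 27025 promoters of all genes and 2.12% of 944 Olfr promoters. TCCCGC stood in 42.9%, against 20.0% and 0.953%. Both motifs stood in 25.7% of germline promoters, among them those of Mael, Ddx4, Hormad1, Sycp1, Sycp3 and Stag3, against 2.05% of all promoters. Some windows belong to a start site inside the annotated gene. That of Stag3 spans chr5:138280259-138280558, while the gene begins at chr5:138272514. The Ddx4 window, chr13:112652261-112652560, likewise lies within its gene, chr13:112598333-112652633. The median germline promoter held 18 CpG dinucleotides, the median promoter of all genes 7 and the median Olfr promoter 1. The Asz1 window held neither motif and 17 CpG dinucleotides. The Nanos3 window also held neither motif, with 3 CpG dinucleotides. A match is a description of the letters and not of binding.

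Depth differed between the sections, and WT1 stood apart. Over tissue, WT1 held 43803829 UMIs in 6183 spots (median of 6285 UMIs a spot), while WT2, KO1 and KO2 held 8697030, 7000825 and 8501140 UMIs in 10285, 7587 and 8443 spots (medians of 759, 914 and 932). Olfr genes took 0.0312% of all UMIs in WT1, 0.634% in WT2, 1.01% in KO1 and 1.48% in KO2. Digestive enzyme genes, the products of acinar cells, took 62.9%, 51.4%, 21.7% and 20.9% in the same order. CPM here are UMIs per 1000000 UMIs over the tissue of a section. The CPM of any gene at the background thus follow the Olfr share, and each germline gene is given below both in CPM and as UMIs per 1000 UMIs of the 1107 Olfr genes with a UMI. Neither scale corrects for gene length or for the number of probes to a gene, so a level against the Olfr genes also depends on these, while a comparison of 1 gene between sections does not. The alignment files place WT1 and KO1 on 1 slide and WT2 and KO2 on another, so the genotypes could also be compared within each slide.

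The labels were also set against the targeted gene and against sex-linked genes. Ehmt2 had 865 UMIs in WT1, 33 in WT2, 73 in KO1 and 101 in KO2 (19.7, 3.79, 10.4 and 11.9 CPM), so that WT2 was the lowest on both scales, and the edgeR adjusted p was 0.226. Of the Olfr genes, 0% were at or above Ehmt2 in WT1, 81.9% in WT2, 35.1% in KO1 and 59.1% in KO2. Ehmt2 thus lay within the Olfr background in WT2, an Ehmt2 +/+ section, as in KO1 and KO2. Whether its probes lie inside the deleted part is not given in the sources used here. For both reasons the gene does not check the labels. The Y-linked genes Ddx3y, Uty, Kdm5d and Eif2s3y had between 0 and 1 UMI each in WT1 and WT2, between 36 and 105 in KO1, and between 66 and 150 in KO2. Xist was at 0 in all 4 sections, and whether the probe set covers it is not given in the sources used here. Its counts therefore give no reading of sex. The genotype and the presence of Y-linked counts changed together across the sections, and their effects cannot be told apart. The Olfr background also differed by chromosome. The 7 X-linked Olfr genes had a median of 12 UMIs in WT1 and 50 in WT2, against 11 and 48 for 1094 autosomal Olfr genes, which is 1.09 and 1.04 times as many. In KO1 and KO2 the X-linked median was 31 and 56 UMIs against 60 and 111, which is 0.517 and 0.505 times as many. Whether the Olfr counts come from RNA was not tested.

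Most germline genes lay among the Olfr genes in every section. The median germline gene had 0.354 CPM in WT1, 6.78 in WT2, 11.0 in KO1 and 16.3 in KO2, and the median Olfr gene 0.251, 5.52, 8.43 and 12.9 CPM. The 95th percentile of the Olfr genes was 0.571, 9.51, 17.1 and 21.9 CPM, and their highest gene reached 1.05, 17.6, 27.0 and 45.1 CPM. The Olfr genes with the highest mean level were Olfr819 (0.868, 17.6, 26.9 and 45.1 CPM), Olfr318 (0.776, 14.6, 26.4 and 34.5 CPM) and Olfr142 (0.639, 16.7, 24.9 and 32.1 CPM).

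In both Ehmt2 fl/fl sections, 3 germline genes exceeded the 95th percentile of the Olfr genes, namely Asz1, Syce2 and Nanos3. Among all genes with a UMI, 41.7% did so. In both Ehmt2 +/+ sections, 2 germline genes did, Syce2 and Piwil2, against 46.5% of all genes. Taken singly, 65.7% of all genes did so in WT1, 49.7% in WT2, 47.3% in KO1 and 45.4% in KO2. Above the highest Olfr gene, a stricter line, stood only Asz1 in both Ehmt2 fl/fl sections (16.5% of all genes) and only Syce2 in both Ehmt2 +/+ sections (22.5%). In KO1 Asz1 stood at 56.3 CPM and the highest Olfr gene at 27.0. In KO2 the margin was narrow, with Asz1 at 46.7 CPM and Olfr819 at 45.1. The 95% interval of Asz1 for counting error there, 42.2 to 51.5 CPM, includes the level of Olfr819.

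**Figure D1:**
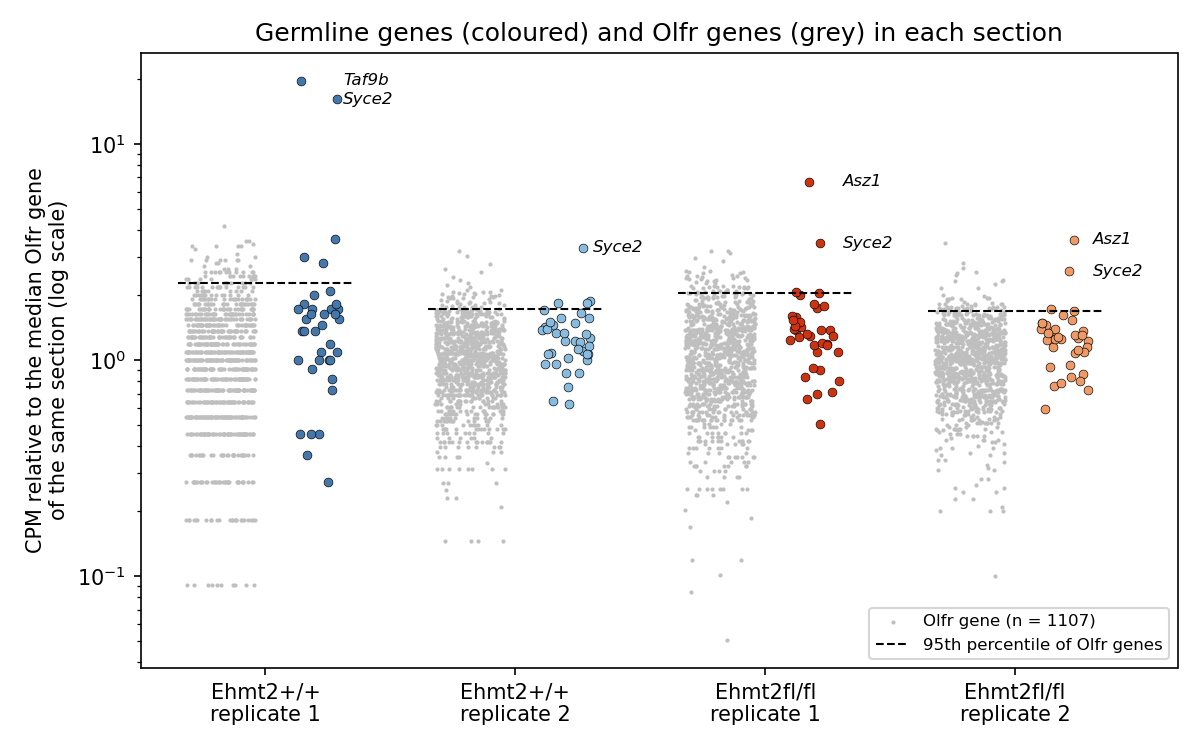
CPM of each of 37 germline genes (coloured points) and of 1107 Olfr genes (grey points), divided by the median Olfr gene of the same section, on a log scale, with the 95th percentile of the Olfr genes as a dashed line. Most germline genes lie among the Olfr genes in all 4 sections. Asz1 lies above every Olfr gene in KO1 and, narrowly, in KO2, and Taf9b and Syce2 lie far above them in WT1.

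Asz1 codes for a germ cell protein with ankyrin repeats that sits on mitochondria in the nuage, the granule where piRNAs are made. Its gene lies at chr6:18050964-18109061 (GRCm38, minus strand). It had 19 UMIs in WT1, 75 in WT2, 394 in KO1 and 397 in KO2, which is 0.434, 8.62, 56.3 and 46.7 CPM. In WT1 and WT2, 189 and 123 of the 1107 Olfr genes were at or above it, and in KO1 and KO2 none were.

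Against the Olfr genes, Asz1 stood at 1.39 UMIs per 1000 in WT1 (95% exact Poisson interval 0.836 to 2.17), 1.36 in WT2 (1.07 to 1.70), 5.55 in KO1 (5.02 to 6.13) and 3.16 in KO2 (2.86 to 3.49). These intervals cover counting error only. Both Ehmt2 +/+ sections sat at nearly the same level and both Ehmt2 fl/fl sections sat above them, with KO1 above KO2. The mean was 1.37 ± 0.0211 (SD, n = 2) in Ehmt2 +/+ and 4.36 ± 1.69 (SD, n = 2) in Ehmt2 fl/fl sections, a ratio of 3.17.

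The edgeR quasi-likelihood test gave Asz1 a log2 fold change of 2.45 (SE 0.73) with an unadjusted p of 0.000754, rank 68 of 20066 genes, and an adjusted p of 0.222, so that Asz1 did not pass. With the Olfr UMIs as library size the edgeR log2 fold change was 1.66 (SE 1.04) with an adjusted p of 0.561. A two-sided exact permutation test over the 4 sections gave p = 0.333, the smallest that 2 against 2 allow. Without WT1, edgeR called Asz1 (log2 fold change 1.70, adjusted p 0.00102), where 1.02% of all genes were called higher and 0.751% lower. Without WT2, edgeR called Asz1 too (log2 fold change 4.01), but 46.7% of all genes were then called higher. With the Olfr UMIs as library size no germline gene was called, nor when WT1 was also left out, an alternative chosen after seeing the data.

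Within slide 1, the Olfr-relative level of Asz1 was 4.0 times as high in KO1 as in WT1 (95% interval 2.53 to 6.71), and within slide 2 it was 2.33 times as high in KO2 as in WT2 (1.81 to 3.02). A ratio at least as large as the smaller of these within both slides was found for 15 of 20148 genes (0.0744%), Asz1 included. It was found for 1 of 1107 Olfr genes, Olfr1369-ps1, and for none of the other 36 germline genes with values in all 4 sections. Genes above the highest Olfr gene in both Ehmt2 fl/fl sections and at or below the 95th percentile of the Olfr genes in both Ehmt2 +/+ sections numbered 7 (0.0343% of all genes). Of these, 6 were predicted genes on the Y chromosome and Asz1 was the only autosomal one. The ratio used as a line was that of Asz1 itself, and these limits describe its values. Its place among the 15 or the 7, and the counts of other genes that reached the line, therefore add no evidence. The autosomal genes Mmp7, Cldn18, Arg1 and Ptx3 fell outside, since each exceeded the 95th percentile in an Ehmt2 +/+ section. The smaller of their ratios within the slides was 4.92, 4.87, 4.32 and 2.80, against 2.33 for Asz1.

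**Figure D2:**
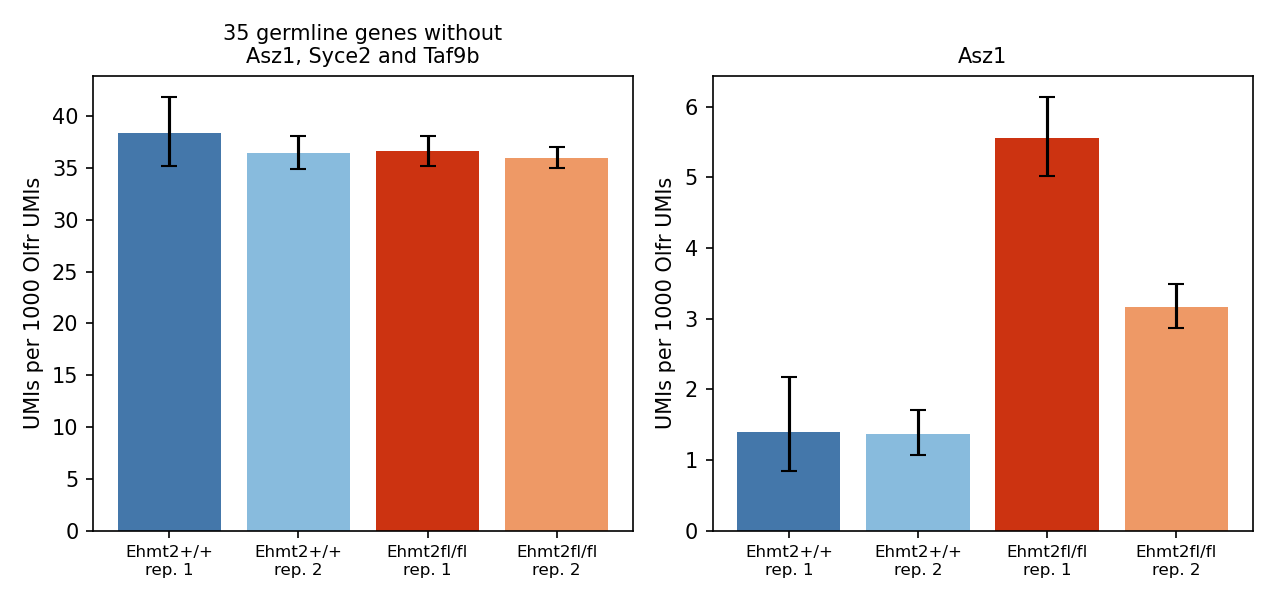
UMIs per 1000 Olfr UMIs in each section for 35 germline genes summed (left) and for Asz1 (right), with 95% exact Poisson intervals that cover counting error only. The summed level lies between 36.0 and 38.4 in all 4 sections, while Asz1 lies near 1.4 in both Ehmt2 +/+ sections and at 5.55 and 3.16 in KO1 and KO2.

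Within single spots, Asz1 was rarely counted more than once. No spot of WT1 or WT2 held more than 1 Asz1 UMI, while 17 spots of KO1 and 15 of KO2 held 2 or more. Olfr819, the Olfr gene with the highest mean level, gave 0, 4, 2 and 15 such spots in WT1, WT2, KO1 and KO2, so that in KO2 the number for Asz1 was no higher than for this gene. The Asz1 UMIs were spread over 376 spots of KO1 and 382 of KO2 rather than gathered in a few.

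Spots were then divided into quartiles by their share of digestive enzyme UMIs. From the lowest to the highest quartile, Asz1 stood at 3.85, 5.87, 7.20 and 5.66 UMIs per 1000 Olfr UMIs in KO1 and at 2.14, 3.16, 3.35 and 4.12 in KO2. In both sections the spots with the least enzyme RNA were the lowest. In WT1 the same quartiles gave 2.69, 1.42, 0.779 and 1.08, and in WT2 1.99, 1.04, 1.11 and 0.806. There the value of the spots with the least enzyme RNA was the highest. These values rest on only 7, 5, 3 and 4 UMIs in WT1 and 40, 14, 13 and 8 in WT2. The intervals of all quartiles overlapped within WT1 and within WT2. In KO1 and KO2 the interval of the first quartile overlapped that of another. A trend over the quartiles was not tested in any section. The quartiles were set within each section and hold unlike spots, with an enzyme share in the lowest quartile of 55.8% in WT1, 30.1% in WT2, 6.41% in KO1 and 4.19% in KO2. In that lowest quartile, KO2 (1.67 to 2.70) and WT2 (1.42 to 2.71) had intervals that overlapped. The highest quartile of KO2 had an enzyme share of 33.9%, nearer to that of the lowest quartile of WT2. Asz1 stood there at 4.12 (3.42 to 4.91), above that quartile of WT2. This pair was picked after the values were seen and was not matched for depth or cell types. Whether the enzyme share has a part in the level of Asz1 was not tested. In the 10% of spots with the most duct marker UMIs, Asz1 stood at 7.62 (5.69 to 9.99) in KO1, 4.68 (3.49 to 6.15) in KO2, 2.01 (0.963 to 3.69) in WT2 and 3.59 (0.978 to 9.19) in WT1, which rests on 4 UMIs. In the 10% of spots with the most lymphoid marker UMIs, it stood at 3.79 (2.58 to 5.38) in KO1, 2.61 (1.79 to 3.66) in KO2 and 2.49 (1.54 to 3.81) in WT2. In the macrophage class KO1, KO2 and WT2 stood at 4.65, 1.91 and 1.65, in the fibroblast class at 5.13, 1.68 and 1.28, and in the islet class at 4.18, 2.10 and 1.83. WT1 stood at 1.36, 1.61, 1.02 and 2.21 in the lymphoid, macrophage, fibroblast and islet classes. Those values rest on 2, 2, 1 and 3 UMIs. In the islet class WT1 (0.456 to 6.46) was thus above KO2. In these 4 classes the intervals of KO2 and WT2 overlapped, and in the duct class those of KO2 and WT2 overlapped at their ends.

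The summed markers of cell types also differed between the sections. The 8 macrophage markers summed to 69.0, 131, 750 and 629 CPM in WT1, WT2, KO1 and KO2, the 10 lymphoid markers to 20.3, 127, 432 and 345 CPM, and the 6 fibroblast markers to 417, 583, 2032 and 1920 CPM. The 6 duct markers summed to 366, 512, 1359 and 1040 CPM and the 8 proliferation genes to 19.3, 101, 204 and 234 CPM. All 5 lists had both Ehmt2 fl/fl sections above both Ehmt2 +/+ sections, as did 90.2% of all genes with a UMI on the CPM scale. Relative to the Olfr genes, WT1 was the highest section for each of these 5 lists. The 7 islet markers summed to 1136, 865, 6432 and 908 CPM, with KO2 below WT1. In both Ehmt2 fl/fl and in both Ehmt2 +/+ sections, the genes above the 95th percentile of the Olfr genes numbered 6 and 6 of 8 macrophage, 6 and 7 of 10 lymphoid, 5 and 6 of 6 fibroblast, 5 and 5 of 6 duct, 6 and 6 of 7 islet, 4 and 3 of 8 proliferation and 27 and 30 of 31 enzyme genes. The enzyme share and, on the CPM scale, these 5 lists differed between the same sections as Asz1, and their part in its level was not tested. Among all genes with a UMI, 41.7% exceeded the 95th percentile of the Olfr genes in both Ehmt2 fl/fl and 46.5% in both Ehmt2 +/+ sections. edgeR called 0 genes of these lists, against 0.0548% of all genes called higher and 0.0399% lower.

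**Figure D3:**
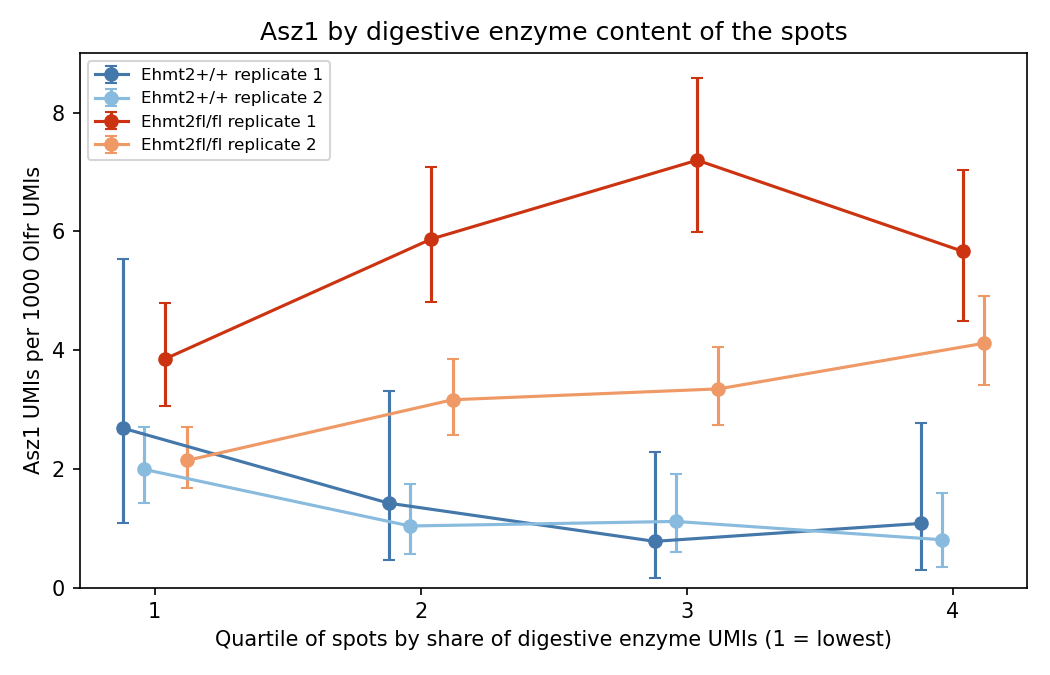
Asz1 UMIs per 1000 Olfr UMIs (vertical axis) in spots divided by quartile of their digestive enzyme share (horizontal axis), with 95% exact Poisson intervals that cover counting error only. KO1 and KO2 are lowest in the first quartile (3.85 and 2.14), and WT1 and WT2 are highest there (2.69 and 1.99). Within WT1 and within WT2 the intervals of all quartiles overlap, and in KO1 and KO2 that of the first quartile overlaps that of another.

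The genes beside Asz1 on chromosome 6 were also measured. Wnt2, a secreted signalling protein, stood at 1.10, 1.45, 0.818 and 1.11 UMIs per 1000 Olfr UMIs in WT1, WT2, KO1 and KO2, and did not exceed the 95th percentile of the Olfr genes in any section. Cftr, the chloride channel of duct cells, stood at 1.02, 0.761, 0.747 and 0.725 and likewise stayed within the Olfr range. Neither was called by edgeR (adjusted p 0.912 for Wnt2 and 0.872 for Cftr).

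**Figure D4:**
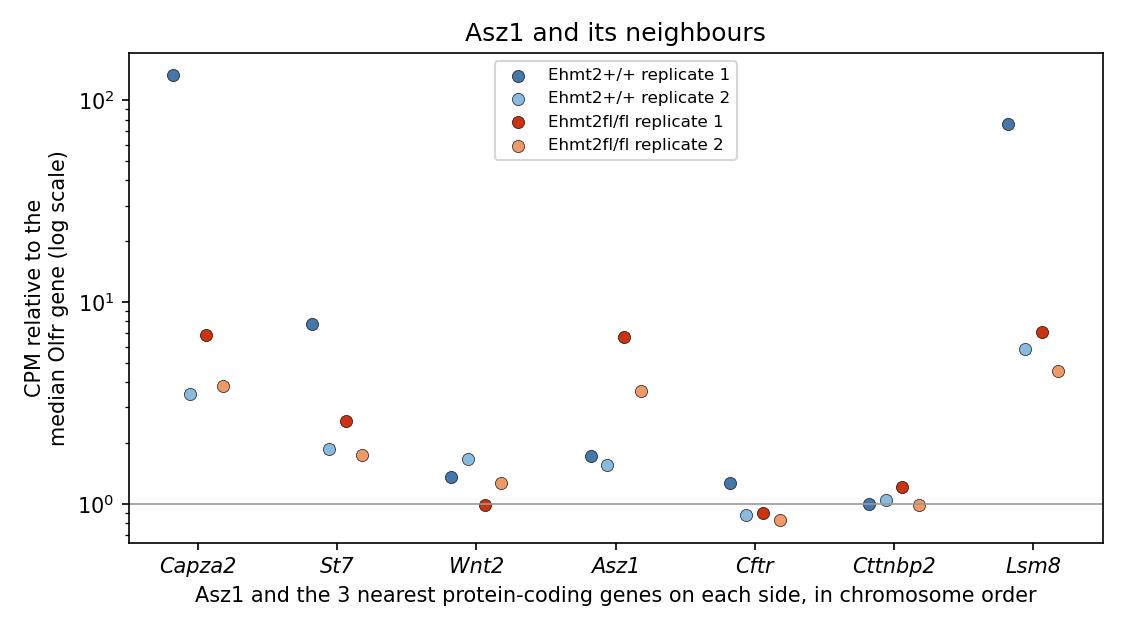
CPM divided by the median Olfr gene of the same section (log scale) for Asz1 and the 3 nearest protein-coding genes on each side, with 1 point a section. Wnt2, Cftr and Cttnbp2 lie near the median Olfr gene in all 4 sections, and only Asz1 has both Ehmt2 fl/fl sections above both Ehmt2 +/+ sections beyond that range.

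The other piRNA and nuage genes stayed near the background. Piwil2, a PIWI protein that binds piRNAs in the cytoplasm, had 33, 90, 105 and 178 UMIs in WT1, WT2, KO1 and KO2 (0.753, 10.3, 15.0 and 20.9 CPM). Relative to the Olfr genes it stood at 2.41, 1.63, 1.48 and 1.42, with both Ehmt2 +/+ sections above both Ehmt2 fl/fl sections. Its edgeR log2 fold change was 0.53 (SE 0.91, adjusted p 0.872), and it turned to -0.46 with the Olfr UMIs as library size.

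Tdrd12, a Tudor protein of the piRNA pathway, had the second largest log2 fold change of the germline genes. It had 17, 49, 107 and 141 UMIs (0.388, 5.63, 15.3 and 16.6 CPM in WT1, WT2, KO1 and KO2). Its edgeR log2 fold change of 1.27 (SE 1.10) had an adjusted p of 0.872, and relative to the Olfr genes its levels of 1.24, 0.888, 1.51 and 1.12 overlapped between the genotypes. The 15 genes of this role, among them Mael, Tdrd1, Tdrd9, Mov10l1 and Piwil4, summed to 17.5, 17.0, 22.1 and 18.7 UMIs per 1000 Olfr UMIs, with Asz1 included.

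The synaptonemal complex joins homologous chromosomes in meiosis, and Syce2 is one of its central element proteins. Syce2 (chr8:84872111-84887446) had 177, 159, 205 and 283 UMIs in WT1, WT2, KO1 and KO2, or 4.04, 18.3, 29.3 and 33.3 CPM. Of the 1107 Olfr genes, 0 reached it in WT1, WT2 and KO1, and 3 did in KO2. It was above the background in both genotypes, with 12.9, 2.88, 2.89 and 2.26 UMIs per 1000 Olfr UMIs, so that WT1 was high and the other sections were close together. The edgeR log2 fold change was 0.02 (SE 0.69, adjusted p 0.991), and it was -1.62 with the Olfr UMIs as library size and -0.17 when WT1 was also left out. The 5 genes of the complex with a UMI summed to 17.0, 6.72, 6.89 and 6.63 UMIs per 1000 Olfr UMIs.

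Among the germ cell RNA-binding and fate genes, Nanos3 passed the background line narrowly. Nanos3, an RNA-binding protein that keeps primordial germ cells alive (chr8:84173733-84176552), had 22, 79, 122 and 190 UMIs in WT1, WT2, KO1 and KO2, or 0.502, 9.08, 17.4 and 22.3 CPM. The 95th percentile of the Olfr genes in KO1 and KO2 was 17.1 and 21.9 CPM, and 51 and 48 Olfr genes were at or above it there. Its Olfr-relative levels of 1.61, 1.43, 1.72 and 1.51 overlapped between the genotypes, and its edgeR log2 fold change of 0.95 (SE 0.92) had an adjusted p of 0.872.

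Sohlh2, a transcription factor of early germ cells, had 3, 31, 47 and 88 UMIs in WT1, WT2, KO1 and KO2 (0.0685, 3.56, 6.71 and 10.4 CPM). Its Olfr-relative levels were 0.219, 0.562, 0.662 and 0.701, lowest in WT1 where 3 UMIs stand behind the value. The edgeR log2 fold change was 1.23 (SE 1.46, adjusted p 0.872). The 9 genes of this role, among them Dazl, Ddx4, Nanos2, Stra8, Dppa3, Figla and Zp3, summed to 11.1, 9.91, 9.98 and 9.47 UMIs per 1000 Olfr UMIs.

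Dazl, an RNA-binding protein of germ cells, is an example of these, with 8, 68, 64 and 119 UMIs and Olfr-relative levels of 0.585, 1.23, 0.902 and 0.948 that overlapped between the genotypes. Ddx4, the germ cell RNA helicase, had 16, 64, 64 and 138 UMIs and Olfr-relative levels of 1.17, 1.16, 0.902 and 1.10. Both were inside the range of the Olfr genes in every section. Dazl and Ddx4 were chosen for mention after their values were seen.

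Of the testis paralogues, Taf9b and Brdt were at the lower end of the log2 fold changes. Taf9b, a TFIID subunit that somatic tissues also use and the only X-linked gene of the list (chrX:106206874-106221158), had 215, 72, 76 and 102 UMIs in WT1, WT2, KO1 and KO2, or 4.91, 8.28, 10.9 and 12.0 CPM. Relative to the Olfr genes it stood at 15.7, 1.31, 1.07 and 0.813. Taf9b exceeded the 95th percentile of the Olfr genes only in WT1, where 65.7% of all genes did. Against the median of the 7 X-linked Olfr genes its UMIs were 17.9, 1.44, 2.45 and 1.82 times as many, and the genotypes then overlapped. Its edgeR log2 fold change was -1.09 (SE 0.81, adjusted p 0.872). Brdt, the bromodomain protein of spermatocytes, had 11, 54, 41 and 80 UMIs (0.251, 6.21, 5.86 and 9.41 CPM), Olfr-relative levels of 0.804, 0.979, 0.578 and 0.638, and an edgeR log2 fold change of 0.16 (SE 1.34, adjusted p 0.960).

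The meiotic axis, cohesin and recombination genes Hormad1, Hormad2, Smc1b, Stag3, Spo11 and Dmc1 summed to 5.34, 4.84, 4.48 and 4.82 UMIs per 1000 Olfr UMIs in WT1, WT2, KO1 and KO2, and the intervals of all 4 sections overlapped.

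**Figure D5:**
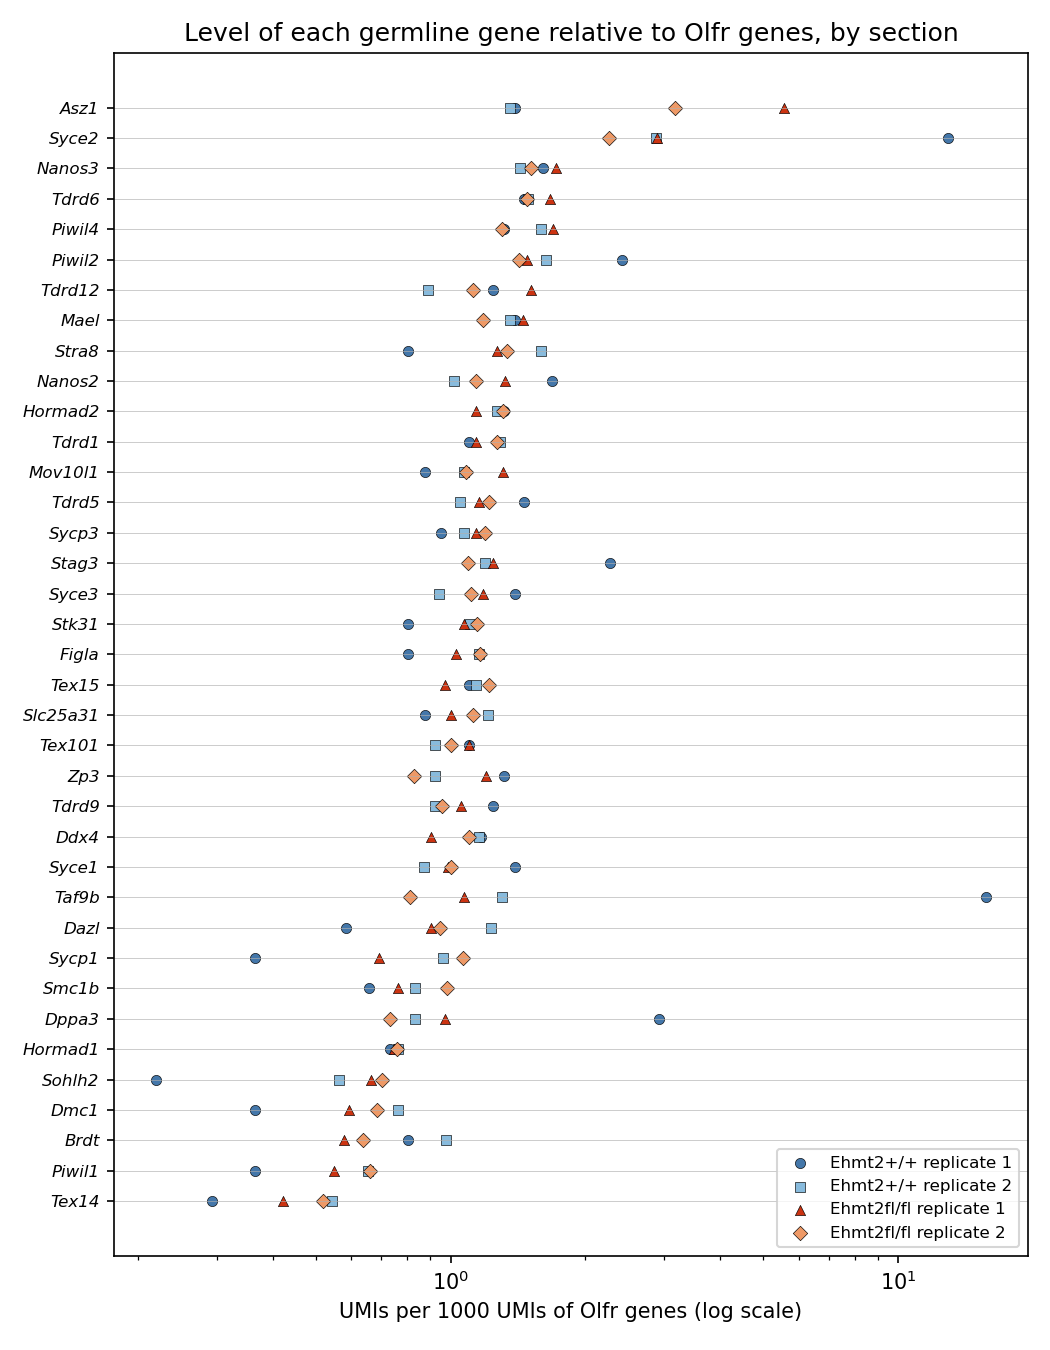
UMIs per 1000 Olfr UMIs (log scale) of 37 germline genes, 1 row a gene, ordered by the mean of KO1 and KO2, with 1 symbol a section. Asz1 at the top has KO1 and KO2 at 5.55 and 3.16 and both Ehmt2 +/+ sections near 1.4, and Syce2 and Taf9b have WT1 far to the right.

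Between the genotypes, edgeR called 0 of the 37 germline genes tested at an adjusted p of 0.05. On data simulated at the common dispersion of these sections, 0.362, the test called 0 of 199 genes given a log2 change of 2. A count of 0 called, here or for another list, therefore does not show that its genes were unchanged. Of all 20066 genes tested, 0.0548% were called higher and 0.0399% lower in Ehmt2 fl/fl sections. DESeq2 also called 0 germline genes, but it gave no adjusted p for Asz1, Syce2, Nanos3, Piwil2, Taf9b, Brdt, Tdrd12 and Sohlh2. These genes could not be called there, so that its 0 adds no evidence for them. Asz1 had an unadjusted DESeq2 p of 0.00854. At an unadjusted p under 0.05 in the first edgeR fit there was 1 germline gene, Asz1, and 5.01% of all genes. The median log2 fold change was 0.80 over the germline genes, 0.80 over 1105 Olfr genes and 0.25 over all genes. With the Olfr UMIs as library size these medians were 0.00, 0.00 and -1.20, and 19 of 37 germline genes were above 0, against 36 of 37 in the first fit. The edgeR fit with the Olfr UMIs as library size called 0.105% of all genes higher, 2.39% lower and 0 germline genes. At an unadjusted p under 0.05 it had 2 germline genes and 1812 of all 20066. These were Dppa3 (log2 fold change -1.03, p 0.0135) and Taf9b (-3.17, p 0.0462), both lower in Ehmt2 fl/fl sections. Asz1 had an unadjusted p of 0.111 in that edgeR fit.

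On the CPM scale, 36 germline genes were higher in both Ehmt2 fl/fl sections than in both Ehmt2 +/+ sections, as were 90.2% of all genes. Relative to the Olfr genes, 4 germline genes (Asz1, Sohlh2, Sycp3 and Mov10l1) were higher in both Ehmt2 fl/fl sections, where 4.63% of all genes were, and 4 (Taf9b, Brdt, Piwil2 and Ddx4) were lower in both, where 25.8% of all genes were. For the X-linked Taf9b this did not hold against the X-linked Olfr genes, as given above. The other 30 overlapped. All 38 germline genes summed to 68.4 UMIs per 1000 Olfr UMIs in WT1 (64.1 to 73.0), 42.0 in WT2 (40.3 to 43.7), 46.1 in KO1 (44.6 to 47.7) and 42.2 in KO2 (41.1 to 43.4), with WT1 far above the other sections. The 35 germline genes without Asz1, Syce2 and Taf9b summed to 38.4 UMIs per 1000 Olfr UMIs in WT1 (35.2 to 41.8), 36.4 in WT2 (34.9 to 38.1), 36.6 in KO1 (35.2 to 38.1) and 36.0 in KO2 (35.0 to 37.1). The intervals of this smaller sum, which cover counting error only, all overlapped.

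A second list of 34 germline genes, among them Meiob, Rec8, Msh4, Terb2, Gtsf1 and Tex19.1, was counted in the same way. Of these, 5 exceeded the 95th percentile of the Olfr genes in both Ehmt2 fl/fl sections and 7 in both Ehmt2 +/+ sections. Among all genes with a UMI, 41.7% and 46.5% did so. edgeR called 0 of 32 tested, against 0.0548% of all genes called higher and 0.0399% lower. None of the 34 had ratios within both slides as large as the smaller ratio of Asz1, a line set by Asz1 itself that adds no evidence. The markers of spermatids (7 genes such as Prm1 and Tnp1) and of oocytes (6 genes such as Zp2 and Gdf9) had 0 genes above the line in both sections of either genotype. Summed spermatid markers stood at 8.33, 7.59, 6.67 and 7.37 UMIs per 1000 Olfr UMIs in WT1, WT2, KO1 and KO2, and oocyte markers at 6.43, 7.25, 5.58 and 6.42. Of 21 genes of the silencing machinery, such as Ehmt1, E2f6, Mga, Dnmt1 and Uhrf1, 13 exceeded the line in both Ehmt2 fl/fl sections (41.7% of all genes). In both Ehmt2 +/+ sections 15 did (46.5% of all genes), and 0 of 20 tested were called.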

How the data were processed

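The authors ran Space Ranger 2.0.1 against mm10 with the mouse probe set and deposited raw UMI counts per gene and spot, with every spot listed. The histogram of log10(UMI + 1) over spots (bins of 0.05) has a valley in each section, which served as the limit of the tissue, and their counts were summed per section. Of 32589 features, 304 marked as deprecated were left out. Sections were grouped by their genotype labels, and the slide of each was read from the alignment files. All sections share 13898 spot barcodes, since slides of this kind carry the same barcodes.

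Genotypes were compared with the quasi-likelihood test of edgeR 4.0.16 (TMM factors, genes filtered by filterByExpr at a count of 10 or more, Benjamini-Hochberg adjustment across the genes tested, threshold 0.05) in R 4.3.3, with DESeq2 1.42.0 as an alternative. On simulated data with 2 sections a genotype, the script called 191 of 199 genes given a log2 change of 2 at a dispersion of 0.05, and 0 of 199 at the common dispersion of these sections, 0.362. Levels, intervals and permutation tests were computed in Python 3.11.15 with numpy 2.4.6, pandas 2.3.3 and scipy 1.17.1, and figures with matplotlib 3.10.9. UMI totals ranged from 7000825 to 43803829 over tissue, and all intervals (95%, exact) cover counting error only.

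The germline genes named with values in every section were those above the 95th percentile of the Olfr genes in both sections of a genotype, those called by edgeR, and the 3 largest and 3 smallest log2 fold changes. The germline genes, the other lists and the tests were chosen with earlier results of these data known. Alternatives were other normalizations, no filter on low counts, other sets of spots, other lines on the Olfr genes, and each section left out. Slide as a block, the same with the Olfr UMIs as library size, and the Olfr UMIs as library size without WT1 were added after seeing the data. P-values measure the spread between these sections. Lists of acinar, duct, islet, lymphoid, macrophage, fibroblast and proliferation markers were used to describe spots and sections.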

Additional observations from a re-analysis of the deposited data

How the results depend on the processing

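The labels give the sections no replicate numbers, and those used here follow accession order, so no replicate block was fitted. Slide, read from the alignment files, was fitted as a block in its place, chosen after seeing the data. The count of germline genes called was 0 in the first fit and under all alternatives but the leave-one-out fits, where it ranged from 0 to 35: it was 1 without WT1 and 35 without WT2, and with 1 section left in a genotype that section is assumed to vary like the other genotype. With DESeq2 the 0 covers genes that had no adjusted p, as given above. The count of all genes called, 19 in the first fit, was 192 with DESeq2, 195 without TMM factors, 3 with upper-quartile normalization and 501 with the Olfr UMIs as library size. It was 10 with slide as a block, 287 with slide as a block and the Olfr UMIs as library size, 193 with the Olfr UMIs as library size and without WT1, and ranged from 0 (without KO2) to 16701 (without WT2) when a section was left out. With the Olfr UMIs as library size, 21 were higher and 480 lower, against 11 and 8 in the first fit. With DESeq2, 9 were higher and 183 lower, and without TMM factors 188 and 7.

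Above the highest Olfr gene, 1 germline gene stood in both Ehmt2 fl/fl sections in place of 3, and at the 99th percentile or the highest Olfr gene 1 stood in both Ehmt2 +/+ sections in place of 2. With a section left out, the first count was 3 in each case and the second ranged from 4 to 5. The sum of the germline genes relative to Olfr (KO minus WT) was -11.0 UMIs per 1000, and -1.10 without Asz1, Syce2 and Taf9b. With a section left out it ranged from -24.2 (without WT2) to 2.20 (without WT1), and it changed sign only without WT1. These shifts were smaller than the SD of the Ehmt2 +/+ sections (18.7, n = 2), a spread that itself includes WT1. The same difference for Asz1 alone was 2.98 and ranged from 1.79 to 4.18.

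The log2 fold change of Asz1 was positive in every fit (1.60 to 4.01), as were those of Nanos3, Tdrd12 and Sohlh2. Syce2 turned to -0.29 with DESeq2, -1.62 with the Olfr UMIs as library size, -0.12 without WT1, -0.05 without KO1, -1.26 with slide as a block and the Olfr UMIs, and -0.17 with the Olfr UMIs and without WT1. Piwil2 turned to -0.46, -0.11 (without WT1), -0.44 and -0.17 under those settings, leaving out DESeq2 and KO1. Brdt turned to -0.59 with the Olfr UMIs, -0.61 without WT1, -0.04 without KO2, -0.57 with slide as a block and the Olfr UMIs, and -0.68 with the Olfr UMIs and without WT1. Taf9b turned to 0.80 without TMM factors. With a section left out, the log2 fold changes ranged from -0.12 to 0.085 for Syce2, -0.11 to 1.68 for Piwil2 and -0.61 to 2.01 for Brdt. The cause was not tested. In WT1, the section with the most UMIs, the median Olfr gene had 11 UMIs, against 48 to 110 in the other sections, so that a level relative to the Olfr genes rests on fewer UMIs there.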

Other observations

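Dppa3, a maternal factor that protects DNA methylation in the early embryo, had 40, 46, 69 and 92 UMIs in WT1, WT2, KO1 and KO2. Relative to the Olfr genes it stood at 2.92, 0.834, 0.973 and 0.733 UMIs per 1000, so that WT1 was high and the other sections overlapped. Stag3, a meiotic cohesin subunit, had 31, 66, 88 and 137 UMIs and stood at 2.27, 1.20, 1.24 and 1.09 in the same order, again with WT1 the highest. In WT1 both exceeded the 95th percentile of the Olfr genes, as did 65.7% of all genes there. Both were chosen after their values were seen.

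Rhox5, an X-linked homeobox gene of the reproductive tract that is not among the 40 genes, was 1 of the 15 genes with an Olfr-relative ratio within both slides at least as large as the smaller ratio of Asz1. It had 4, 28, 257 and 169 UMIs in WT1, WT2, KO1 and KO2, or 0.292, 0.507, 3.62 and 1.35 UMIs per 1000 Olfr UMIs. Its edgeR log2 fold change was 3.15 (SE 0.94) with an adjusted p of 0.226, and it was also chosen after its values were seen. The other genes of the 15 included the autosomal genes Cldn18, Mmp7, Ptx3 and Arg1. Among those named, edgeR called only Cldn18 (adjusted p 0.0416). The Y-linked genes Gm20914, Gm21310, Gm20807, Gm21118 and Gm20854 were also among the 15. edgeR called each of them, with adjusted p from 3.93e-10 to 0.000385, and they follow the Y-linked counts of the sections.

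The 6 predicted Y-linked genes above the highest Olfr gene in both Ehmt2 fl/fl sections had between 285 and 2686 UMIs in KO1 and between 753 and 7460 in KO2, and at most 25 in an Ehmt2 +/+ section.

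Outside the tissue, Asz1 had 1 UMI in WT1, 3 in WT2, 13 in KO1 and 3 in KO2. Per 1000 Olfr UMIs outside the tissue this was 2.30 in WT1 (0.0582 to 12.8) and 1.58 in WT2 (0.325 to 4.61). It was 6.64 in KO1 (3.54 to 11.4) and 1.24 in KO2 (0.256 to 3.63). On that scale KO1 was the highest and KO2 the lowest section, on few UMIs.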
